A study of Homo sapiens with 4 samples.

Results

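Cleavage of pre-mRNA before the poly(A) tail is added depends on the cleavage and polyadenylation specificity factor (CPSF) and the cleavage stimulation factor (CstF), and 10 genes for their subunits were examined in maps of HNRNPC and PABPC4 binding. The genes were CPSF1, CPSF2, CPSF3, CPSF4, FIP1L1, WDR33, CSTF1, CSTF2, CSTF2T and CSTF3, and a peak belonged to them when the deposited list gave it the NCBI Gene ID of one of them, each position being counted once. Of 72614 peaks in both lists, 68 did so, 7 of 9107 for HNRNPC and 61 of 63507 for PABPC4. The genes were chosen by name and not by their peaks.

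The samples were cultures of the established human breast cancer line MDA-MB-231, 2 immunoprecipitated for HNRNPC and 2 for PABPC4, all irradiated with 400 mJ per square centimetre of ultraviolet light at 254 nm. The labels name no knockdown, drug or second line, so both groups share cell line, culture and irradiation and differ in the antibody and library method. HNRNPC, a nuclear protein that binds uridine tracts, was mapped by irCLIP according to the labels, whereas the deposited list carries the name of HITS-CLIP. PABPC4, a poly(A)-binding protein, was mapped by PAPERCLIP, in which reverse transcription starts at the poly(A) tail so that tags mark mRNA 3′ ends. Each list pools the tags of its 2 samples, so sample-to-sample spread could not be had for any value and none was tested. In the PABPC4 list, the mesenchymal genes VIM, CD44, EGFR and AXL had 3′ UTR peaks of 10197, 331, 600 and 1041 tags, and the hormone receptor genes ESR1 and PGR had 0 peaks. The epithelial gene CDH1 (56 tags) and the luminal gene GATA3 (108 tags), fixed as absent or low in this line, each had 1 3′ UTR peak.

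CPSF recognizes the poly(A) signal, most often AAUAAA or AUUAAA, through WDR33 and CPSF4, and its CPSF3 subunit cuts the RNA a short way downstream. CstF binds GU-rich sequence past the cut through CSTF2 and helps to choose among alternative poly(A) sites. CSTF3 is itself known for a poly(A) site inside an intron, whose use yields a short mRNA that lacks most of the coding sequence.

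A PABPC4 peak was called signal-bearing when AAUAAA or AUUAAA started within 40 nt upstream of its 3′ end. The ends that the account of alternative 3′ ends turns on are shown here on hg38 as DNA, 5′ to 3′ on the gene's strand, with the signal in capitals. The CSTF3 pair sets the end inside intron 3 beside the end of the full-length mRNA, and the CSTF1, CPSF4, CSTF2 and CSTF2T pairs set an upstream beside a downstream end of 1 3′ UTR.
CSTF3 intron 3 end, chr11:33141432-33141461, minus strand: ttgcaacaacATTAAAacagtttcaatggt
CSTF3 full-length end, chr11:33084589-33084618, minus strand: aaaagtcctttaaaaAATAAAaggattcag
CSTF1 upstream end, chr20:56404231-56404260, plus strand: ctgatAATAAAgctcagatctgcaacttta
CSTF1 downstream end, chr20:56406332-56406361, plus strand: tgatttctgaAATAAActttatatacaatg
CPSF4 upstream end, chr7:99456836-99456865, plus strand: tcattcccctcATTAAAcaccagttcttgg
CPSF4 downstream end, chr7:99457342-99457371, plus strand: ttttatgaaatggATTAAAgcttgtttttt
CSTF2 upstream end, chrX:100840893-100840922, plus strand: tgacttgaAATAAActttgaacacaatttt
CSTF2 downstream end, chrX:100841489-100841518, plus strand: tcaagatgaAATAAAaacagaaatcaaatg
CSTF2T upstream end, chr10:51697263-51697292, minus strand: ttggttgtataacaaAATAAAagtttaccc
CSTF2T downstream end, chr10:51695502-51695531, minus strand: tctctgcattgtttcatgcagaaAATAAAg

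Not every PABPC4 peak lay at such a signal. A primer of T bases can also anneal to A bases encoded in the genome, so each peak was checked for an A-rich stretch, meaning a run of 6 A bases, or 7 A bases among 10 neighbouring bases, in the 50 nt past its 3′ end. The tallest intron peak of CSTF3 and a FIP1L1 intron peak are printed with the 50 nt after them as examples of such places, with the A run in capitals. The FIP1L1 sequence resembles the sense strand of 7SL RNA, from which Alu repeats derive, and the CSTF3 sequence does not.
CSTF3 intron 3, chr11:33118065-33118161, minus strand: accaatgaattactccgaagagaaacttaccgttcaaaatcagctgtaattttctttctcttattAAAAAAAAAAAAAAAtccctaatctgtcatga
FIP1L1 intron 11, chr4:53417612-53417692, plus strand: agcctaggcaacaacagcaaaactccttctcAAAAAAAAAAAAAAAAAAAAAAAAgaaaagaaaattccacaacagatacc

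The HNRNPC peaks are represented by both CPSF4 peaks, the tallest of the 7. The capitals mark GTGTCA, here within the last 20 nt of the peak.
CPSF4 intron 5, chr7:99452086-99452245, plus strand: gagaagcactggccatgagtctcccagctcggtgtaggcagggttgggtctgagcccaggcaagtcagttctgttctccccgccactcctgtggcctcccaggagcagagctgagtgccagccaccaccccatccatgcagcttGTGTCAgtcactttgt
CPSF4 intron 6, chr7:99453431-99453568, plus strand: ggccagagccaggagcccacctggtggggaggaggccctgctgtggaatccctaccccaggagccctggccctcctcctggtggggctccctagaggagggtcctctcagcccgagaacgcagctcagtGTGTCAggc

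All 10 genes had a PABPC4 peak in a 3′ UTR, whereas HNRNPC peaks were listed in 5 of them. The HNRNPC peaks lay in introns, as did 85.5% of the whole HNRNPC list. A PABPC4 peak anywhere under the gene ID was found in 10 of 10, against 59.2% of 20056 protein-coding genes, and a 3′ UTR peak in 10 of 10 against 48.7%. An HNRNPC peak was found in CPSF2, CPSF4, FIP1L1, WDR33 and CSTF3, 5 of 10 genes against 19%. Shares of coding genes with a given kind of peak are over all 20056, whether or not these cells transcribe them. The genes held between 3 PABPC4 peaks (CSTF2T) and 12 (WDR33), where the median coding gene with any peak had 3. CSTF2T has no intron and is the shortest gene, at 4110 nt, and WDR33 is the longest, at 110145 nt. Between them counts rose with gene length only loosely. CSTF1 (13984 nt) and CPSF1 (16105 nt) had 4 peaks each and CSTF3 (76897 nt) had 7. Against that order, FIP1L1 (83222 nt) had 6 and CPSF4 (18431 nt) had 7.

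**Figure D1:**
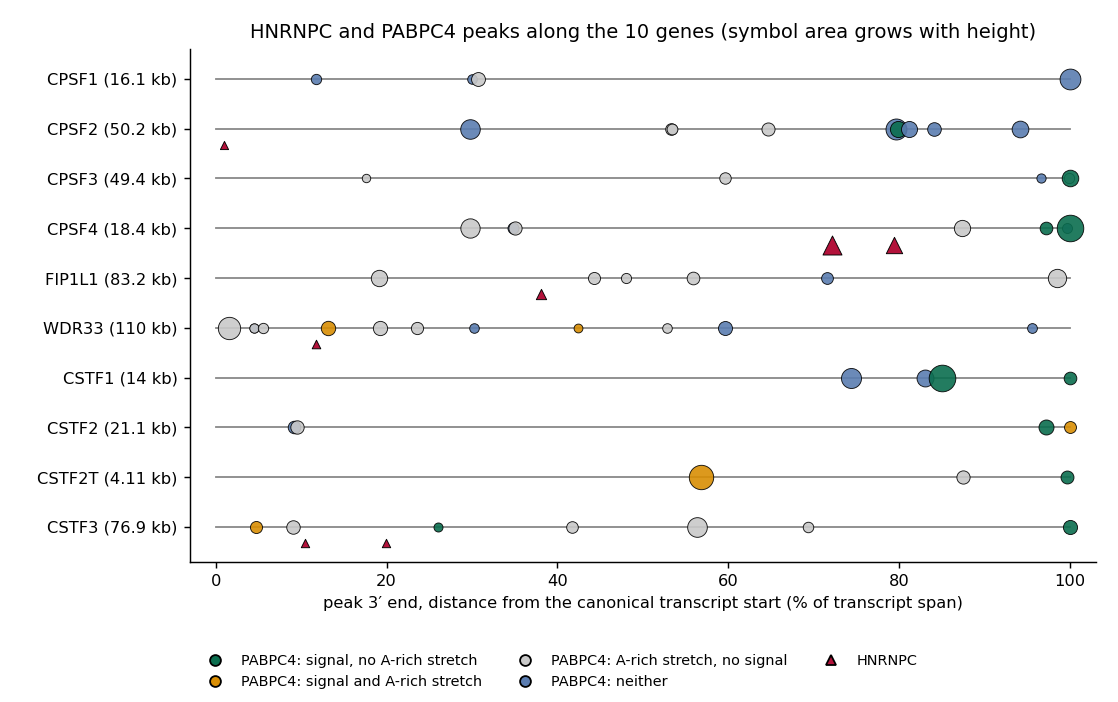
Peaks along the 10 genes. The horizontal axis gives the peak 3′ end as distance from the start of the canonical transcript in percent of its span (length beside each name), circles are PABPC4 peaks coloured by poly(A) signal and A-rich stretch, triangles are HNRNPC peaks, and symbol area grows with height. In 7 genes a PABPC4 peak sits at the canonical end, and the 7 HNRNPC triangles lie away from it.

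The peak height, which is the number of pooled tags at the summit, put CSTF1 and CPSF4 first among the tallest 3′ UTR peaks and WDR33 last. The order was CSTF1 with 185 tags, CPSF4 with 184, CSTF2T with 153, CPSF2 with 110, CPSF1 with 108, FIP1L1 with 81, CPSF3 with 64, CSTF2 with 50, CSTF3 with 43 and WDR33 with 14. The 95% Poisson intervals of every pair of neighbours in this order overlapped except for CSTF3 (31.1 to 57.9) and WDR33 (7.65 to 23.5). Over 9769 coding genes with a 3′ UTR peak the tallest had quartiles of 33, 73 and 147 tags, so CSTF1, CPSF4 and CSTF2T lay above the upper quartile and WDR33 below the lower. WDR33 was taller than 8.36% of those genes. Heights were not scaled to mRNA abundance, so the order ranks tags at 3′ ends, and fewer mRNAs cannot be told apart from fewer tags per mRNA.

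**Figure D2:**
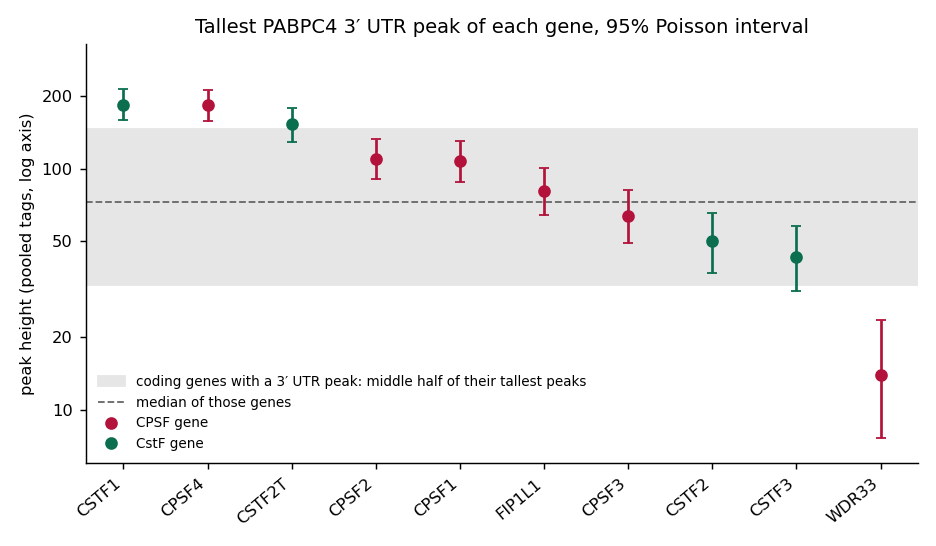
Height of the tallest PABPC4 3′ UTR peak in each gene, in pooled tags on a log axis, with exact 95% Poisson intervals that cover counting error only. The grey band and dashed line give the quartiles (33 to 147) and median (73) over coding genes with such a peak, and WDR33 at 14 tags is the only gene below the band.

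Among the CPSF genes, CPSF1, the large scaffold subunit, had 4 PABPC4 peaks on chromosome 8. Its only 3′ UTR peak (108 tags, 144393230 to 144393295, minus strand) ended 1 nt before the annotated end of the gene, and neither form of the poly(A) signal nor any of 10 weaker variants lay within 40 nt of its 3′ end. The other 3 peaks, of 17, 13 and 41 tags, lay in intron 2, the first similar to the antisense and the other 2 to the sense strand of 7SL RNA. On the opposite strand ADCK5 ended in a peak of 96 tags whose 3′ end lay 40 nt past that of CPSF1.

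CPSF2, the inactive partner of the endonuclease, has a canonical 3′ UTR of 10401 nt and had 5 peaks in it, on chromosome 14. From upstream to downstream these held 110, 60, 59, 39 and 65 tags. The 60-tag peak (92162037 to 92162049) carried AAUAAA 12 nt before its end, and the 59-tag peak carried the weaker ACUAAA. The peak nearest to the annotated 3′ end still stopped 2962 nt before it, so the far end of this long 3′ UTR had no listed peak. A further peak of 94 tags lay in intron 6, with no A-rich stretch and with the weaker hexamer AAUAGA 13 nt before its end.

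CPSF3, the endonuclease, had a single 3′ UTR peak of 64 tags at 9473068 to 9473109 on chromosome 2. It bore AAUAAA 36 nt before its end and ended 8 nt past the annotated gene end. Its remaining peaks were lower, 11 and 17 tags in coding exons and 7 and 24 tags in introns 4 and 12.

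CPSF4, a zinc-finger subunit that contacts the poly(A) signal, ended at both ends shown above, which bear AUUAAA and lie 506 nt apart. The downstream end held 184 tags and the upstream 32, so 85.2% of the signal-bearing tags (95% Wilson interval 79.8 to 89.3) were downstream, 2 nt before the canonical end. A peak of 15 tags with no signal lay 5 nt upstream of the 184-tag peak. The 4 intron peaks (91 tags in intron 1, 21 and 36 in intron 2, 61 in intron 7) all resembled 7SL RNA in the sense direction. ATP5MF, on the other strand, ended in a peak of 971 tags whose 3′ end lay 814 nt past the CPSF4 end.

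FIP1L1, which links CPSF to poly(A) polymerase, had 1 3′ UTR peak of 81 tags at 53459508 to 53459589 on chromosome 4. It ended 29 nt before an annotated end, lay before an A-rich stretch and had no signal. The other 5 peaks were in introns 9, 10, 11 and 13 and held 62, 28, 16, 32 and 26 tags. All 7 entries of FIP1L1, the HNRNPC peak included were also listed under the ID of PDGFRA, a receptor kinase gene further along the chromosome.

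WDR33, which reads AAUAAA together with CPSF4, had most of its peaks in introns. So did CPSF1, CPSF4, FIP1L1 and CSTF3, and 60.2% of the whole list lay in introns. Of its 12 peaks on chromosome 2, 10 were in introns, 8 of these in intron 1. The tallest (126 tags, intron 1) preceded an A-rich stretch and resembled 7SL RNA in the sense direction. The only 3′ UTR peak held 14 tags and stopped 4899 nt before the annotated end, with the weaker AAUACA 25 nt before its own end. AAUAAA was found at a peak of 45 tags in intron 1 and at a peak of 9 tags in intron 6 of the canonical transcript, which is coding in another isoform. Both preceded an A-rich stretch.

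CSTF1, a WD-repeat subunit of CstF, ended mostly at the upstream of its signal-bearing ends. The upstream end held 185 tags and the downstream end 32, with 2101 nt between them, so 85.3% (79.9 to 89.4) of the signal-bearing tags were upstream. The downstream end lay 1 nt before the canonical end, whereas the nearest annotated end to the upstream one was 202 nt away. A 67-tag peak without signal lay 184 nt upstream of the 185-tag peak. In intron 5 lay a peak of 99 tags, similar to 7SL RNA and with no A-rich stretch. It carried the weaker ACUAAA 9 nt before its end.

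CSTF2, the subunit that binds GU-rich RNA, is encoded on the X chromosome and ended at 2 sites 596 nt apart, both within 2 nt of an annotated end. The upstream end had 50 tags, 64.9% (53.8 to 74.7) of 77, and the downstream end had 27 and preceded an A-rich stretch. Its other 2 peaks, of 31 and 37 tags, lay in a coding exon near the start of the gene. CSTF2T, its intronless paralogue on chromosome 10, likewise had more tags upstream, 153 against 34 at ends 1761 nt apart (81.8%, 75.7 to 86.7). The 153-tag end preceded an A-rich stretch and lay 1777 nt before the only annotated end, while the 34-tag end lay 16 nt before that end. Between them was a 36-tag peak before an A-rich stretch and with no signal.

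In CSTF1, CSTF2 and CSTF2T the upstream end was the taller, and in CPSF4 the downstream end was. The ratio of upstream to downstream height was 5.78 in CSTF1, 4.5 in CSTF2T, 1.85 in CSTF2 and 0.174 in CPSF4. CPSF4, CSTF1, CSTF2, CSTF2T and CSTF3 had 2 or more signal-bearing 3′ UTR ends at least 50 nt apart. These are 5 of 10 genes, against 8.26% of coding genes (1656 of 20056). Of those 20056, only 9769 had any PABPC4 3′ UTR peak, as all 10 genes did. The CSTF3 ends lie in 3′ UTRs of different isoforms, and on canonical transcripts alone the count was 4 genes. Of the 5 genes, leaving out ends before an A-rich stretch left CPSF4, CSTF1 and CSTF3, 3 genes. At or above the median height of the list (38 tags) 0 genes had 2 such ends, since 1 end of each pair was lower than that. The share of coding genes under these stricter settings is not given, so the 8.26% cannot be set beside those counts.

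**Figure D3:**
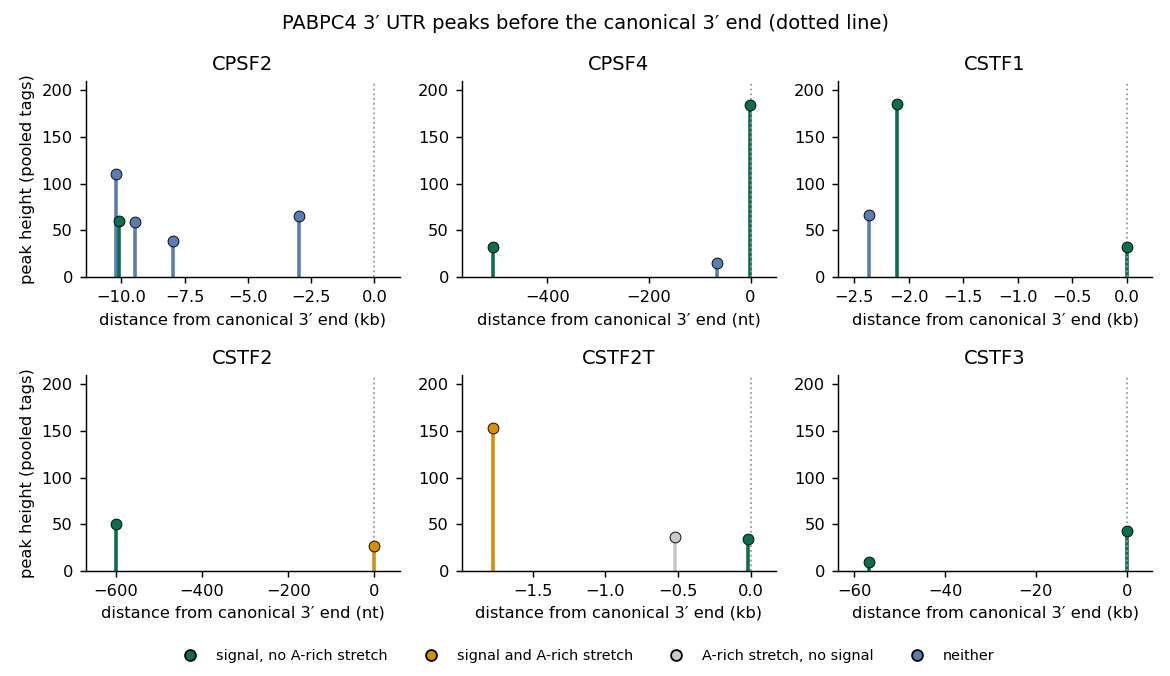
PABPC4 3′ UTR peaks in the genes with more than 1 such peak. The horizontal axis gives the distance of the peak 3′ end from the canonical 3′ end (dotted line; nt or kb, scaled per gene), the vertical axis the height in pooled tags, and colours the signal and A-rich stretch. CSTF1 and CSTF2T are tallest far upstream, CPSF4 at the end, and no CPSF2 peak reaches the end. The CSTF3 peak at left lies in the 3′ UTR of the short isoform.

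CSTF3, the CstF scaffold subunit, showed a low peak in the 3′ UTR of a short isoform, just past an annotated end. The peak held 10 tags (exact Poisson interval 4.80 to 18.4) at chr11:33141432-33141464, in intron 3 of the canonical transcript and in the 3′ UTR of an annotated short transcript. AUUAAA started 20 nt before its end, no A-rich stretch followed, and its end lay 33 nt past an annotated end. The end of the full-length mRNA had 43 tags (31.1 to 57.9), with AAUAAA 15 nt before a peak end that lay 5 nt before the canonical end. Of the 53 tags at both ends, 18.9% (10.6 to 31.4) were at the short end.

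The other 5 PABPC4 peaks of CSTF3 lay in introns and all preceded an A-rich stretch. One of them, 28 tags in intron 1, bore AAUAAA, so that the share of signal-bearing tags in introns was 34.6% (25.1 to 45.4) when the short isoform's 3′ UTR was counted as 3′ UTR, 46.9% when intron was read from the canonical transcript, and 0% when ends before an A-rich stretch were left out. The tallest PABPC4 peak of the gene, 95 tags in intron 3, had neither a signal nor similarity to 7SL RNA and is the CSTF3 sequence shown above with its A run. The peaks of 38, 25 and 18 tags in introns 1, 3 and 4 complete the gene. A signal-bearing intron peak was found in WDR33 and CSTF3, 2 of 10 genes against 8.6% of coding genes, and both such peaks preceded an A-rich stretch. The 10-tag CSTF3 end in intron 3 is not in this count, since it was placed in the 3′ UTR of the short isoform. Read on canonical transcripts, it was the 1 signal-bearing intron end with no A-rich stretch.

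Over the 61 PABPC4 peaks, 22 lay in 3′ UTRs (36.1%, 25.2 to 48.6), 33 in introns (54.1%, 41.7 to 66.0) and 6 in coding exons (9.84%, 4.59 to 19.8), against 29.7%, 60.2% and 5.08% of the whole list. The signal stood at 12 of the 22 3′ UTR peaks (54.5%, 34.7 to 73.1; whole list 48.6%) and started a median of 19.5 nt before the end (whole list 21). It stood at 2 of the 33 intron peaks (6.06%, 1.68 to 19.6; whole list 6.40%). An A-rich stretch followed 4 of 22 in 3′ UTRs (18.2%, 7.31 to 38.5; whole list 32.0%), 24 of 33 in introns (72.7%, 55.8 to 84.9; whole list 71.2%) and 32 of all 61 (52.5%, 40.2 to 64.5; whole list 58.5%). A signal with no A-rich stretch was seen at 10 of the 22 3′ UTR peaks (45.5%, 26.9 to 65.3), against 39.8% of the whole list. It was seen at 0 of 33 intron peaks (Wilson interval 0 to 10.4%), against 2.12% of the whole list. For that 0, a limit of 3 counts allows a share of up to 9.09%. In each of these shares the whole-list value lay within the interval for the 10 genes.

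**Figure D4:**
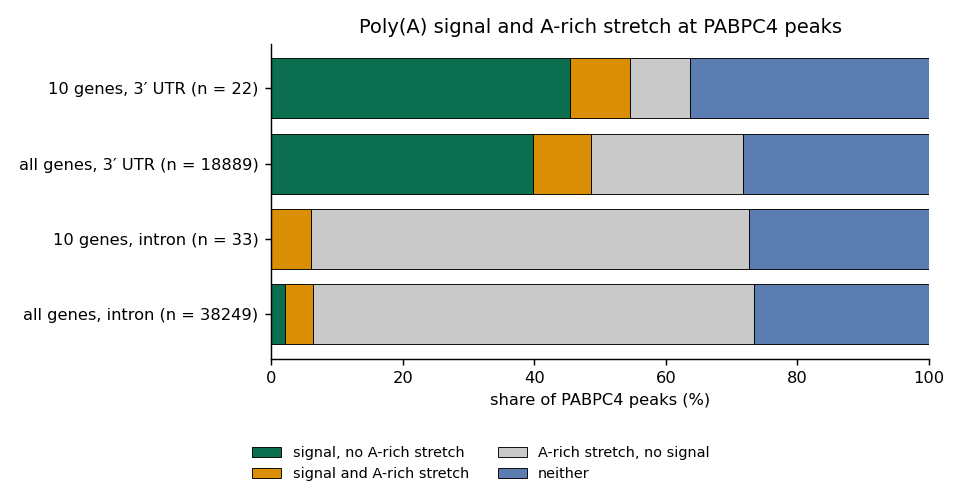
Share of PABPC4 peaks, in percent, by poly(A) signal (AAUAAA or AUUAAA within 40 nt upstream of the peak end) and A-rich stretch (within 50 nt downstream), in 3′ UTRs and introns of the 10 genes and of all genes. Intron bars are mostly grey, an A-rich stretch with no signal (66.7% in the 10 genes, 67.0% in all). The green share, signal with no A-rich stretch, is 45.5% in the 3′ UTRs of the 10 genes and 0% in their introns. In all genes it is 39.8% and 2.12%.

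Similarity to 7SL RNA was seen in intron peaks and in no 3′ UTR peak of the 10 genes. Of 33 intron peaks, 20 matched the sense strand of 7SL RNA (60.6%, 43.7 to 75.3; whole list 59.7%), 1 matched the antisense strand and 14 of the 20 also preceded an A-rich stretch. Of 22 3′ UTR peaks, 0 matched it (0 to 14.9%; whole list 7.63% sense). Only 2 intron peaks, the 94-tag peak of CPSF2 and the 42-tag peak of WDR33, had neither an A-rich stretch nor this similarity. The WDR33 peak, in intron 7, carried the weaker AAUACA 26 nt before its end. Of 31 intron peaks without AAUAAA or AUUAAA, 6 carried a weaker hexamer (19.4%, 9.19 to 36.3; whole list 15.3%). The part of priming at encoded A bases in these heights was not tested. The median height was 54.5 tags in 3′ UTRs (whole list 45) and 28 in introns (whole list 35).

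All 7 HNRNPC peaks fell in introns, of 5 genes, and CPSF4 held most of the tags. Introns held 85.5% of the whole HNRNPC list, which lay within the interval for the 7 peaks (64.6 to 100%). CPSF4 had 88 tags (70.6 to 108) in intron 5 and 62 (47.5 to 79.5) in intron 6, 150 of the 195 tags of all 7 peaks. The 88-tag height was reached by 0.966% of the 9107 HNRNPC peaks. FIP1L1 had 17 tags in intron 10, WDR33 8 in intron 1, CSTF3 7 and 7 in intron 1, and CPSF2 6 in intron 1, where the median of the list was 11 tags. CPSF1, CPSF3, CSTF1, CSTF2 and CSTF2T had no listed HNRNPC peak. With peaks kept only at the authors' p-value of at most 0.001, 3 peaks in CPSF4 and FIP1L1 remained. The count of 5 genes with a peak thus rested in part on peaks above that threshold. The 19% of coding genes was taken over all listed peaks, and the share at that threshold is not given.

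Uridine tracts, for which HNRNPC is known, were counted as runs of at least 5 T bases and found beside 1 of its 7 peaks. Runs of 4 T lay in the FIP1L1 and WDR33 peaks. They also lay within 50 nt upstream of the CPSF2, CPSF4 intron 6 and FIP1L1 peaks. Runs of that length were not counted over the whole list. A run of 5 T bases was in 0 of 7 peaks (Wilson interval 0 to 35.4%; whole list 13.3%), and a limit of 3 counts allows a share of up to 42.9%. In the 50 nt upstream it was found once, in WDR33, whose run was 24 T long (1 of 7; whole list 30.5%). WDR33 and both CSTF3 peaks, 3 of 7, matched the antisense strand of 7SL RNA, against 36.9% of the list. GTGTCA lay in the last 20 nt of both CPSF4 peaks, 2 of 7, against 23.3% of the list. The part of a shared library sequence in that hexamer was not tested.

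No HNRNPC peak of these genes overlapped a PABPC4 peak, and 0 of 7 lay within 500 nt of a signal-bearing end. The same counts over the whole HNRNPC list are not given, so neither can be read as particular to these genes. In the 4 genes that had both kinds of site, the distances of 6 peaks ranged from 1612 nt, to the intron 1 end of WDR33, to 39619 nt in CPSF2. In CPSF4 the peaks lay 4620 and 3297 nt upstream of the nearer end, and in CSTF3 both lay in intron 1, at 4359 and 4693 nt from a signal-bearing end. The WDR33 end at 1612 nt and the CSTF3 end at 4359 nt both preceded an A-rich stretch. The 10 genes had 1.58 HNRNPC peaks per 100 kb of gene (exact Poisson interval 0.634 to 3.25, from 7 peaks), an interval that holds the 0.665 over all coding genes. At the authors' p-value of at most 0.001 the values were 0.676 (0.139 to 1.98, from 3 peaks) and 0.474.

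Of 13 other genes of the 3′ end machinery, all had a PABPC4 peak and 12 had one in a 3′ UTR, the exception being INTS9 of the Integrator complex. The tallest 3′ UTR peaks were those of the nuclear poly(A)-binding protein PABPN1 (2130 tags), the poly(A) polymerase PAPOLA (644) and the phosphatase SSU72 (450), all taller than any of the 10 genes. The scaffold SYMPK (155), CPSF6 (141) and NUDT21 (114) of cleavage factor I and INTS11 (129) lay among them, and the lowest was PCF11 with 28 tags. HNRNPC peaks were listed in 5 of the 13, 7 in SYMPK, 6 in SSU72, 2 in CPSF6 and 1 each in CPSF7 and PCF11. Signal-bearing 3′ UTR ends numbered 2 or more, at least 50 nt apart, in NUDT21, CPSF6, PAPOLA, PABPN1 and SSU72, also 5 genes, and CPSF6 and INTS9 had a signal-bearing intron peak.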

How the data were processed

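Peaks were mapped in 2 HNRNPC and 2 PABPC4 samples. Per the paper's methods, the authors collapsed HNRNPC reads by molecular identifier, trimmed them with cutadapt, aligned them with BWA (version 0.7.17) to hg38, removed duplicates and called peaks by valley seeking with correction for multiple testing; the steps for PABPC4 were not given separately. The deposited signal of each peak is its height in pooled unique tags, not scaled to depth, and replicates were pooled, so library depth is unknown here and heights were compared within a list only. The summed heights were 147196 (HNRNPC) and 4019739 (PABPC4). Each position was counted once and placed by its centre, over protein-coding transcripts of GENCODE 44 on hg38 first, in the order 3′ UTR, coding exon, 5′ UTR, non-coding exon, intron. Similarity to 7SL RNA (RN7SL1, 299 nt) was called with BLAST 2.17.0 at an E-value of at most 1e-05, with 100 nt on either side. Shares have 95% Wilson intervals and heights exact Poisson intervals, both for counting error only, and peaks of a gene are not independent. Python 3.11.15 was used, and functions were tested on simulated sequences. Members and lists were chosen with earlier results of these data known. All 10 genes were named, each with its tallest 3′ UTR peak, signal-bearing intron peaks and tallest HNRNPC peak; other peaks were named after their values were seen.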

Additional observations from a re-analysis of the deposited data

Results flagged for a closer look

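Signal in data outside the gene IDs used above was seen at FIP1L1. On its strand, and within its annotated span in GENCODE 44, 2 PABPC4 peaks were listed under the ID of PDGFRA only, in the 3′ UTR of longer FIP1L1 transcripts. The taller held 112 tags and ended 181 nt past the canonical FIP1L1 end, and the other held 10 tags and ended 1790 nt past it. Both preceded an A-rich stretch and neither bore AAUAAA or AUUAAA. The 112-tag peak is taller than the 81-tag 3′ UTR peak listed under FIP1L1, and which transcript gave these tags was not tested.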

How the results depend on the processing

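Of 62 alternatives run over 12 results, 42 left the value within 1.5 times the count given or within the interval of the share or density given, and 20 moved it. At the authors' p-value of at most 0.001, HNRNPC peaks fell from 7 to 3 and genes with one from 5 to 2. At or above the median height, there were 3 HNRNPC peaks in 2 genes, 26 PABPC4 peaks, 8 signal-bearing ends, 1 gene with a signal-bearing intron end and 0 genes with 2 signal-bearing 3′ UTR ends, and the CSTF3 intron share was 0%. With 10 more hexamers there were 23 signal-bearing ends, 5 genes with one in an intron and a CSTF3 intron share of 46.5%. Without ends before an A-rich stretch, 0 genes had a signal-bearing intron end, 3 genes had 2 signal-bearing 3′ UTR ends, and the CSTF3 intron share was 0%. Chosen after seeing the data, the canonical transcript alone gave a CSTF3 intron share of 46.9%, and with no A-rich stretch 18.9% and 1 gene with a signal-bearing intron end. The density of HNRNPC peaks at the authors' p-value of at most 0.001, also chosen after seeing the data, was 0.676 per 100 kb. Asking for the A-rich stretch within 20 nt lowered its share from 52.5% to 34.4%. Within 2000 nt of a signal-bearing end lay 1 HNRNPC peak. No paired analysis was possible because the deposited lists pool replicates, which also left none to leave out. Heights of 6 to 10 tags, as at most HNRNPC peaks and the CSTF3 short end, carry wide counting intervals, and a gene without a listed peak may still be bound below the calling threshold.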
